A study of Mus musculus with 6 samples.

Results

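Hepatic stellate cells store vitamin A, wrap the sinusoids of the liver and are a main source of its collagen. The 33 genes described here encode the folding machinery of their endoplasmic reticulum (ER) and the unfolded protein response that controls it. They were chosen by symbol from 24346 symbols listed in each of the 6 libraries, and all 33 were found. The sequenced RNA came from wild type C57BL/6 mice aged 35 weeks, 1 library per group. The cells came from tumour tissue of livers of mice on a high-fat diet, from non-tumour tissue of such livers and from livers of mice on a normal diet, each perfused at 37 and at 6 degrees. Per the labels' protocols all 6 were sorted as cells without CD31 and CD45.2 and with CD49a. The labels do not give the number of livers in a library or whether regions came from the same animal. With 1 library per group, each p-value sets an effect against what an additive model of source and temperature leaves unexplained in these 6 libraries, and that remainder may be technical.

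The values are FPKM, in which fragments are divided by transcript length and by the library's mapped total. Whether they were also rescaled between libraries is not given. If they were not, the spacing of low values puts the libraries at about 1.67e+07 to 2.34e+07 fragments. By that spacing a single fragment per kb of transcript equalled 0.0428 to 0.0599 FPKM. The defining stellate cell genes were present in all 6 libraries. The 12 listed markers summed to 24557 to 38131 FPKM in the high-fat libraries and to 23726 to 26746 FPKM in the normal diet libraries. By temperature the sums were 26746 to 38131 FPKM at 37 degrees and 23726 to 26679 FPKM at 6 degrees. Most of each sum came from Dcn (11148 to 16597 FPKM), Ecm1 (7479 to 13214 FPKM) and Colec11 (2252 to 5563 FPKM). Lrat was at 335 to 538 FPKM and Des at 93.8 to 135 FPKM. Markers of other cells were also found. The 12 endothelial genes summed to 443 to 903 FPKM at 37 degrees and to 1781 to 4010 FPKM at 6 degrees, and the 13 macrophage genes to 38.6 to 851 FPKM at 37 degrees and to 512 to 2213 FPKM at 6 degrees. Of the endothelial sums, 350 to 421 FPKM at 37 degrees and 427 to 588 FPKM at 6 degrees came from Eng alone. The 10 hepatocyte genes summed to at most 184 FPKM in a library, and the 8 B and plasma cell genes to at most 4.77 FPKM, with each of the 8 listed at 0 in at least 1 library.

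Proteins that enter the secretory pathway fold in the ER with the help of luminal chaperones, a lectin chaperone cycle for glycoproteins and enzymes that form disulfide bonds. Proteins that fail to fold are drawn back to the cytosol and degraded. When unfolded proteins build up, the sensors IRE1, ATF6 and PERK respond. ATF6 and the IRE1 product XBP1 raise the folding capacity by acting on chaperone genes, and PERK slows translation. Cells that secrete much protein, such as matrix-producing stellate cells, rely on this machinery.

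The DNA element through which ATF6 and XBP1 are known to act, the ER stress element (ERSE), was looked for in the promoters of the 33 genes. Genes that rose in high-fat livers, as described below, are marked as such. The search covered RefSeq promoter windows (GRCm38.p6) of 300 bases, 250 before to 50 after the annotated start, on both strands. Of the 33 genes 27 had a window; Hyou1, Manf, Derl1, Sec61a1, Erp29 and Atf6 had none. The ERSE, searched as CCAAT and CCACG with 9 free bases between them, was found for 10 of the 27, against 37 of all 27025 genes with a window (0.137%). The 33 genes were listed as genes of this response. A higher share of ER stress elements than in all genes thus reflects the choice of list and is not a result of these libraries. The 250 bases before the start of Hspa5, at chr2:34771840-34772089 on the plus strand, held 1 such element, in capitals below.
Hspa5: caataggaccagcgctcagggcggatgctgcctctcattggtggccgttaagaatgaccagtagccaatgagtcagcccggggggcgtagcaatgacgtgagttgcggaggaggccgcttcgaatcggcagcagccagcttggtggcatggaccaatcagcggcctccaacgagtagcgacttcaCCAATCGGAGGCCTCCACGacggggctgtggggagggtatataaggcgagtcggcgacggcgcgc

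Of the 6 genes that rose in high-fat livers and had a window, 4 held an ERSE (Hspa5, Calr, Creld2 and Pdia6), and Sdf2l1 and Dnajb11 held none; of the other 21 genes with a window 6 held one. The following elements, with 10 bases on either side and read in the direction of the element, are those of Calr, Creld2 and Pdia6, which rose, and of 4 folding genes that did not pass. Capitals mark the ERSE, whose ends CCAAT and CCACG are fixed and whose 9 inner bases differ between genes.
Calr: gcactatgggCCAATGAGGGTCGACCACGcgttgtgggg
Creld2: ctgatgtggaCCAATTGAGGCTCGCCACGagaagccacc
Pdia6: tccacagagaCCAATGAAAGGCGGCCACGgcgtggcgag
Hsp90b1: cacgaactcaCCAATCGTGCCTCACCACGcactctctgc
Canx: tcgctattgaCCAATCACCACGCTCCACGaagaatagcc
Dnajc3: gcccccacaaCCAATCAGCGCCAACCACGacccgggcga
Ero1lb: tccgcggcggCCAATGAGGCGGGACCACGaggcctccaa

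Hsp90b1 held a second ERSE, and Syvn1 and Derl3 held 1 each. A shorter form of the element, ERSE-II, searched as ATTGG and CCACG with 1 free base between them, was found for Herpud1 and Dnajb11, against 12 of 27025 genes (0.0444%). No member window held the XBP1-type element TGACGTGG, which 193 genes held (0.714%). These motifs share letters: CCACG, or its reverse complement, lies in each of the 3, and CCAAT, or its reverse complement, in the ERSE and ERSE-II. A match in a window is a description of its letters, not a site of binding. Variants of these letters were not searched, so a window without a match may still hold one.

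**Figure D1:**
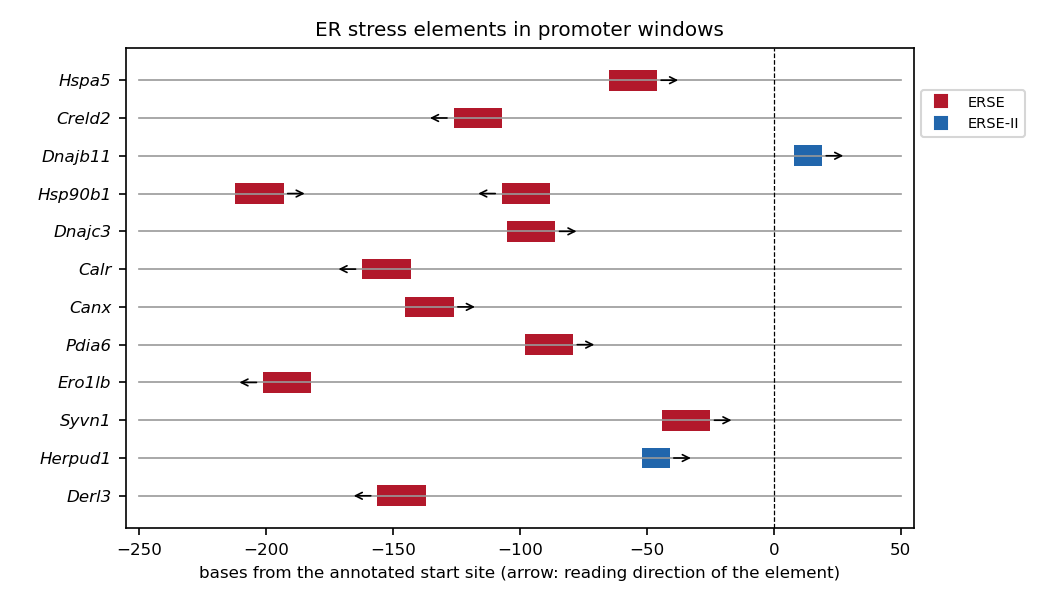
Position of each ERSE (red) and ERSE-II (blue) in the promoter windows of the 12 genes that held one, in bases from the annotated start site (dashed line); arrows show the direction in which the element reads. All 11 ERSE copies lay before the start, as did the ERSE-II of Herpud1, while the ERSE-II of Dnajb11 lay just after it.

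The first comparison asked how stellate cells of high-fat livers, with both regions averaged, differed from those of normal diet livers. Luminal chaperone genes rose in the high-fat livers, led by Hspa5. No sensor or translocon gene passed the test, but each of these groups holds 3 genes, and 10.7% of all genes passed in either direction. Of the 33 genes 32 passed the filter of a mean of at least 1 FPKM, and 8 of these 32 rose and 0 fell (limma on log2(FPKM + 1), adjusted p under 0.05 over 11558 genes; 22 higher and 0 lower unadjusted). Of all genes tested 6.57% rose and 4.17% fell. The median log2 fold change was 0.30 over the 32 genes and 0.02 over all genes tested. All 4 high-fat libraries lay above both normal diet libraries for 24 of the 32 genes, against 15.5% of all genes, and below both for 1, against 14.6% of all genes. Derl3, a degradation factor of secretory cells, was the gene under the filter, at 0.124 to 0.574 FPKM.

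Among the 9 luminal chaperones and their cofactors 6 rose, and all 9 had every high-fat library above both normal diet libraries. Hspa5 (chromosome 2, 34772090 to 34776529) encodes BiP, the ER HSP70 that holds unfolded chains and keeps the 3 sensors inactive. Hspa5 was at 1215 and 768 FPKM in the tumour region and at 951 and 829 FPKM in the non-tumour region (37 and 6 degrees), against 428 and 433 FPKM in normal diet livers. The 4 high-fat libraries were all far above the 2 normal diet libraries, which lay close together, and the means stood in a ratio of 2.19. The log2 fold change was 1.10 ± 0.15 (SE, 4 against 2 libraries), with limma's adjusted p = 0.0139.

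Manf (chromosome 9, 106888753 to 106891938), a secreted protein that binds BiP, was at 72.3 and 61.3 FPKM in the tumour region and at 65.7 and 58.1 FPKM in the non-tumour region, against 35.3 and 36.2 FPKM in normal diet livers. The groups were well apart, and the log2 fold change of 0.83 ± 0.09 had the smallest adjusted p of the 32 genes (limma, 0.00871). Creld2 (chromosome 15, 88819646 to 88826681), a luminal protein induced by ER stress, was at 79.2 and 70.5 FPKM in the tumour region and at 80.9 and 74.7 FPKM in the non-tumour region, against 44.6 and 46.1 FPKM in normal diet livers. Here the tumour and the non-tumour region were nearly level (0.74 ± 0.08, limma's adjusted p = 0.00922).

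Hyou1 (chromosome 9, 44379490 to 44392369), a large HSP70 relative that helps BiP release its nucleotide, was at 16.9 and 18.8 FPKM in the tumour region and at 23.1 FPKM at both temperatures in the non-tumour region, against 13.7 and 9.04 FPKM in normal diet livers. Its groups did not overlap, but its 2 normal diet libraries differed more from each other than those of the other genes that rose. The log2 fold change was 0.81 ± 0.16 (limma's adjusted p = 0.0387). Sdf2l1 (chromosome 16, 17130138 to 17132383), a partner of the ER HSP40 proteins, was at 69.3 and 70 FPKM in the tumour region and at 77.8 and 81.5 FPKM in the non-tumour region, against 48.4 and 50.5 FPKM in normal diet livers. Dnajb11 (chromosome 16, 22857845 to 22879634), an HSP40 that loads substrates onto BiP, was at 75.6 and 76.8 FPKM in the tumour region and at 83.9 and 87.4 FPKM in the non-tumour region, against 55.4 and 59.4 FPKM in normal diet livers. Both genes were highest in the non-tumour region, and their log2 fold changes were 0.58 ± 0.07 and 0.49 ± 0.07 (limma's adjusted p = 0.0117 and 0.0171).

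The other 3 luminal genes did not pass. Hsp90b1, the ER HSP90 that folds integrins and Toll-like receptors, was at 550 and 489 FPKM in the tumour region and at 613 and 513 FPKM in the non-tumour region, against 381 and 416 FPKM in normal diet livers (0.44 ± 0.10, limma's adjusted p = 0.0578). Dnajc3, a BiP cofactor also known as an inhibitor of PERK, had a log2 fold change of 0.30 ± 0.09. Dnajb9, an HSP40 that returns BiP to the sensor IRE1, was at 84 and 43.3 FPKM in the tumour region and at 48.2 and 45.9 FPKM in the non-tumour region, against 43.1 and 42.2 FPKM in normal diet livers. The first of these values stood far above the other 5, and the log2 fold change of 0.31 ± 0.21 (limma's adjusted p = 0.398) was 0.09 without that library.

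In the lectin chaperone cycle Calr rose. Calr (chromosome 8, 84842088 to 84846931) encodes calreticulin, which binds calcium and newly made glycoproteins, and was at 528 and 462 FPKM in the tumour region and at 506 and 466 FPKM in the non-tumour region, against 316 and 318 FPKM in normal diet livers. The normal diet values were almost equal and the log2 fold change was 0.62 ± 0.08 (limma's adjusted p = 0.0124). Canx, its membrane-bound relative calnexin, and Pdia3, the disulfide isomerase that works with both, each had a log2 fold change of 0.26 and did not pass (limma's adjusted p = 0.0811 and 0.107).

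Among the 7 genes of oxidative folding Pdia6 rose. Pdia6 (chromosome 12, 17266589 to 17284785), a disulfide isomerase that also acts on the sensors, was at 317 and 308 FPKM in the tumour region and at 352 and 308 FPKM in the non-tumour region, against 218 and 226 FPKM in normal diet livers (0.53 ± 0.08, limma's adjusted p = 0.0197). Pdia4, Erp29, Erp44 and the oxidases Ero1l and Ero1lb, which recharge the isomerases, had log2 fold changes of 0.31 to 0.44 and did not pass (limma's adjusted p = 0.055 to 0.0905). P4hb, the founding disulfide isomerase and a subunit of the collagen prolyl hydroxylase, had the highest level of the isomerases in normal diet livers. It was at 545 and 523 FPKM in the tumour region and at 590 and 499 FPKM in the non-tumour region, against 515 and 526 FPKM in normal diet livers. These ranges overlapped, and its log2 fold change was 0.05, with a 95% interval of -0.17 to 0.27.

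**Figure D2:**
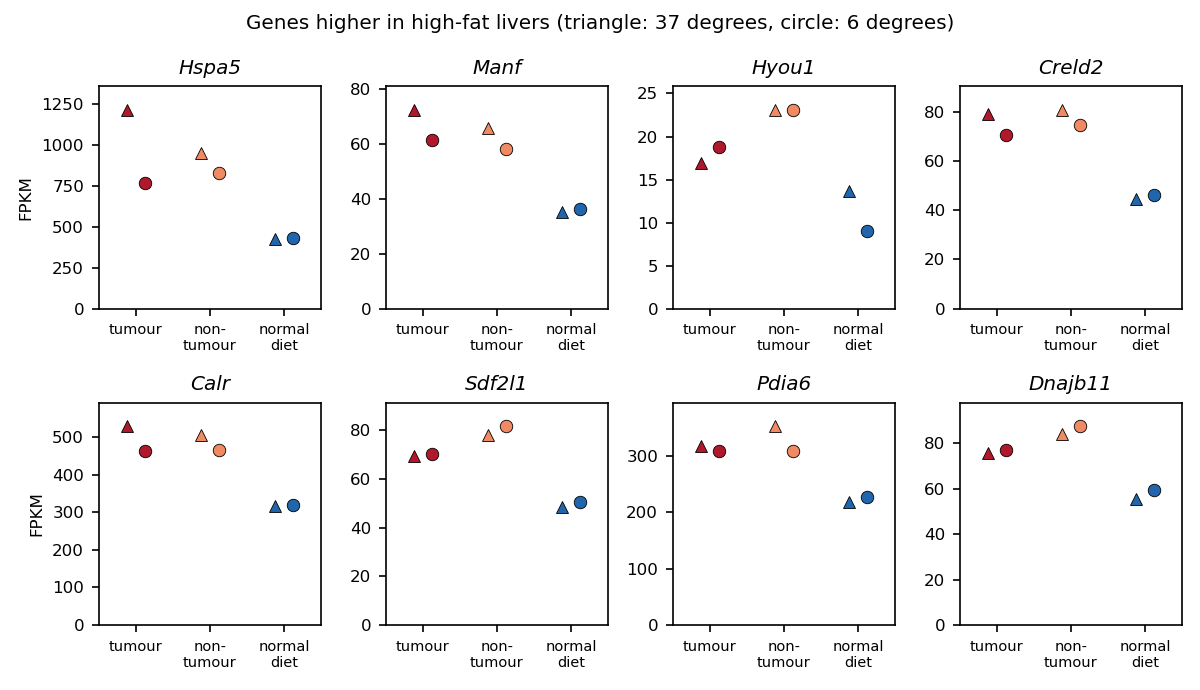
FPKM of the 8 genes that rose in high-fat livers, by liver source (x axis; triangles 37 degrees, circles 6 degrees, 1 library per point, y axes from 0). In each panel the 4 high-fat points lie above both normal diet points, most widely for Hspa5, at 768 to 1215 against 428 and 433 FPKM.

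Of the 13 tested genes of degradation, the translocon, the sensors and Xbp1, 0 passed in the high-fat comparison by limma (unadjusted, 5 higher and 0 lower). Of all genes tested 10.7% passed, and 0 of 13 is near that share. For 6 of the 13 every high-fat library lay above both normal diet libraries, against 15.5% of all genes. For 1 every high-fat library lay below both, against 14.6% of all genes. The degradation genes act in sequence: Edem1 picks misfolded glycoproteins, Derl1 and Derl2 help move them through the membrane, Sel1l and Syvn1 form the ubiquitin ligase and Herpud1 supports that ligase. Edem1, Sel1l, Derl1 and Derl2 had log2 fold changes of 0.25 to 0.30, with every high-fat library above both normal diet libraries. Syvn1, at 13 and 11.5 FPKM in the tumour region and at 13.5 and 12.9 FPKM in the non-tumour region, overlapped with its 12.3 and 11.7 FPKM in normal diet livers. Herpud1 was at 124 and 68.8 FPKM in the tumour region and at 87.7 and 76.1 FPKM in the non-tumour region, against 75.8 and 128 FPKM in normal diet livers. It had the widest scatter of the 32 genes (-0.18 ± 0.31).

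Of the 3 translocon genes, Sec61a1 and Sec61b form the channel and had log2 fold changes of 0.03 and 0.11. Ssr1, a subunit of the translocon-associated complex, was the 1 gene with every high-fat library below both normal diet libraries. It was at 29.7 and 30.1 FPKM in the tumour region and at 31.6 and 29.5 FPKM in the non-tumour region, against 34.3 and 35.8 FPKM in normal diet livers (-0.21 ± 0.08, limma's adjusted p = 0.186). The sensor genes had low levels of 2.18 to 8.85 FPKM. Atf6 had a log2 fold change of 0.13, Ern1 (IRE1) of 0.24 and Eif2ak3 (PERK) of -0.03 (limma's adjusted p = 0.341 to 0.899). Xbp1 was at 245 and 195 FPKM in the tumour region and at 204 and 214 FPKM in the non-tumour region, against 161 and 168 FPKM in normal diet livers (0.38 ± 0.11, limma's adjusted p = 0.0944). Values per gene do not separate the spliced from the unspliced form of Xbp1.

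**Figure D3:**
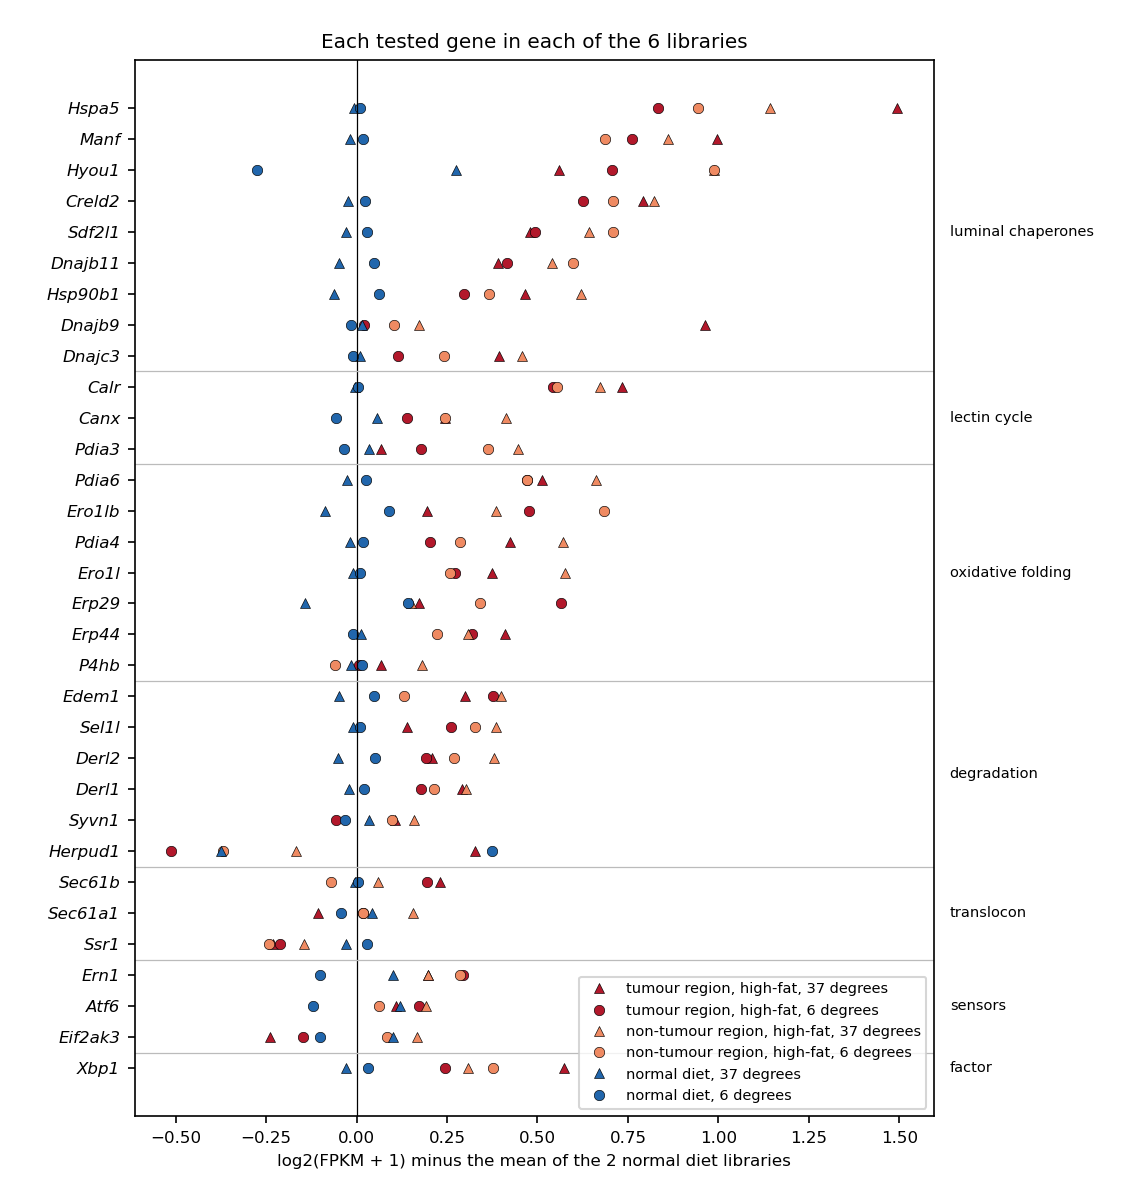
Each of the 32 tested genes in each library, as log2(FPKM + 1) minus the mean of the 2 normal diet libraries (x axis), grouped by role; colours give the liver source and shapes the temperature. The luminal chaperones lie to the right in the high-fat libraries, with Hspa5 the farthest, and the translocon genes lie around 0.

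Endothelial and macrophage markers were also higher in this comparison, which averages both high-fat regions. Their list medians were 1.48 over 12 genes and 1.22 over 13 genes on the log2 scale, and of these 5 and 2 rose. The endothelial sums were 800 and 903 FPKM in the high-fat libraries of 37 degrees and 2112 and 4010 FPKM in those of 6 degrees, against 443 and 1781 FPKM in normal diet livers at 37 and 6 degrees. Eng made up much of the sums at 37 degrees, at 350 and 421 FPKM in the high-fat libraries against 378 FPKM in normal diet livers. Its log2 fold change was 0.11, while the other endothelial genes had 1.11 to 2.79, so the sums understate their difference. In bulk RNA, a change in the share of cells and a change in RNA per cell cannot be told apart. The macrophage sums were 851 and 2213 FPKM in the tumour region and 38.6 and 614 FPKM in the non-tumour region (37 and 6 degrees), against 49.3 and 512 FPKM in normal diet livers. At 37 degrees the non-tumour sum was thus below that of normal diet livers. The part of endothelial cells and macrophages in the high-fat difference of the ER genes was not tested. At 37 degrees Hspa5 was higher than in normal diet livers by 1.50 (tumour) and 1.15 (non-tumour) on the log2 scale, and at 6 degrees by 0.83 and 0.94. Manf was higher by 1.01 and 0.88 at 37 degrees and by 0.74 and 0.67 at 6 degrees, and Calr by 0.74 and 0.68 and by 0.53 and 0.55.

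The count of 8 rested on few libraries. It was 1 (Hyou1) without the normal diet library of 37 degrees, 3 (Hspa5, Manf and Creld2) without that of 6 degrees, 4 and 2 without the non-tumour libraries of 37 and 6 degrees, 8 without the tumour library of 37 degrees and 9 without that of 6 degrees, with Dnajb9 and Xbp1 among the 9 and Hyou1 not. The log2 fold changes stayed positive throughout, with ranges of 0.87 to 1.33 for Hspa5, 0.71 to 0.95 for Manf and 0.64 to 0.83 for Creld2 over 11 alternatives. The count was 0 with no filter on low values, where 0 of 23033 genes passed by limma (unadjusted, 2038 higher and 1712 lower). Under quantile normalization 529 genes rose and 535 fell, against 759 and 482 without it, and 7 of the 32 rose, Pdia6 not among them. There 12 of the 32 were higher and 1 lower at unadjusted p under 0.05 (limma), against 22 and 0 without it. The median over the 32 genes was 0.22, against 0.30 without it, and that over all genes was -0.02, against 0.02. The 2 medians were thus 0.24 apart, against 0.28 without it. With median-ratio rescaling the median over the 32 genes was 0.30 and the count 8. The count and the size of the rise thus depended in part on which scaling was used. Listed FPKM summed to 545408 to 633363 in the high-fat libraries, against 512724 and 492693 in normal diet livers (37 and 6 degrees).

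Wider ER genes were read from a list of 74 further secretory pathway genes, of which 73 were tested. Of these 7 rose (9.59%) and 1 fell (1.37%) in high-fat livers, against 6.57% and 4.17% of all genes tested. The share that rose was thus near that of all genes. Unadjusted by limma, 21 of the 73 were higher and 4 lower, against 1904 and 1243 of the 11558 genes tested. For 28 of the 73 all 4 high-fat libraries lay above both normal diet libraries, against 15.5% of all genes. For 5 they lay below both, against 14.6% of all genes. The median log2 fold change was 0.12, against 0.02 over all genes tested. Pdia5, a disulfide isomerase, was at 55.2 and 58.2 FPKM in the tumour region and at 67.7 and 67.2 FPKM in the non-tumour region, against 35.7 and 36.9 FPKM in normal diet livers (0.75 ± 0.07, limma's adjusted p = 0.00706). Also higher were Edem2 and the cargo receptor Lman1 (0.52 each), the vesicle protein Tmed10 (0.43), the membrane-bound transcription factor Creb3 (0.42) and the signal peptidase subunit Sec11c (0.38), with limma's adjusted p of 0.016 to 0.0417. The 1 gene that fell, named after its value was seen, was the ER peroxiredoxin Prdx4 (-0.36, limma's adjusted p = 0.0445). Serpinh1, the collagen chaperone, did not pass (0.12 ± 0.11, limma's adjusted p = 0.52). Outside the ER, 3 of 20 cytosolic heat shock genes rose in high-fat livers (Hsph1, Hspe1 and Chordc1) and 0 fell.

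Of the genes with an ERSE in the window, the 9 tested members had a median log2 fold change of 0.44 in high-fat livers, from 0.08 for Syvn1 to 1.10 for Hspa5, and the 17 tested members with a window but no ERSE had a median of 0.28. Among the 17 were Dnajb11 (0.49) and Herpud1 (-0.18), which held an ERSE-II. Outside the 33 genes, 7 tested genes held an ERSE. Their median was 0.00, and 0 of the 7 passed by limma (2 at unadjusted p under 0.05, 1 in each direction). Tested genes outside the 33 with an ERSE-II had log2 fold changes of -0.17 (Rcl1) to 0.33 (Krtcap2), and no such gene passed. Krtcap2 had the smallest adjusted p of these (limma, 0.0512). Whether the elements had a part in these values was not tested.

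The second comparison addressed the study's stated question, the side effects of incubation at 37 degrees. In this gene group 0 of 32 rose and 0 fell at 37 against 6 degrees (limma). Of all genes 5.13% passed, 0.51% higher and 4.62% lower. For a group of 32 genes a count of 0 is near these shares and does not set the group apart. Before adjustment, 0 of the 32 were higher with p under 0.05 and 1, Erp29, was lower. The median log2 fold change was 0.07 over the 32 genes and 0.01 over all genes. A total of 5 genes were higher at 37 degrees in all 3 sources, against 23.4% of all genes, and 4 were lower in all 3, against 21.8%. For 27 of the 32 the 95% interval of the log2 fold change lay within 0.5 of 0 on either side, and for all 32 it lay within 1.

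Erp29, a redox-inactive relative of the disulfide isomerases, was at 59.9, 59 and 48 FPKM at 37 degrees in the tumour region, the non-tumour region and normal diet livers, against 78.9, 67.5 and 58.6 FPKM at 6 degrees. It was lower at 37 degrees in each source (-0.29 ± 0.08, limma's adjusted p = 0.115). Ero1lb was lower in each source as well, at 3.38, 4 and 2.6 FPKM at 37 degrees against 4.33, 5.15 and 3.07 FPKM at 6 degrees (-0.25 ± 0.12, limma's adjusted p = 0.296). The largest positive values belonged to Dnajb9 (0.35 ± 0.19) and Hspa5 (0.28 ± 0.14), with limma's adjusted p = 0.382 and 0.33. For Hspa5 the differences between 37 and 6 degrees were 0.66 in the tumour region, 0.20 in the non-tumour region and -0.01 in normal diet livers on the log2 scale. For Dnajb9 they were 0.94, 0.07 and 0.03.

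Genes of other groups passed for temperature in the same libraries. The cytosolic chaperone gene Hspa1a was at 58.9, 119 and 167 FPKM at 37 degrees in the tumour region, the non-tumour region and normal diet livers, against 5.85, 4.01 and 2.94 FPKM at 6 degrees. Of 20 cytosolic heat shock genes 4 rose, and the list had a median of 0.29 on the log2 scale, with values from -0.02 to the 4.37 of Hspa1a. The endothelial list had a median of -3.03 on the log2 scale, with 11 of 12 genes lower, and the macrophage list of -2.64, with 9 of 13 lower. These are markers of other cells, and a different share of such cells cannot be told apart from a change in RNA per cell. The part of these cells in the temperature values of the ER genes was not tested. Nor was their part in the 4.62% of all genes that were lower at 37 degrees. The 12 stellate cell markers had a median of 0.36 on the log2 scale, with values from 0.29 to 0.52. Of these 4 rose (Lrat, Hgf, Lum and Hand2) and 0 fell. The luminal chaperones of the same libraries had a median of 0.12, and their values ran from -0.06 to 0.35.

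Cells of the tumour region perfused at 37 degrees had the highest value of the 6 libraries for 7 of the 32 genes (Hspa5, Calr, Dnajb9, Manf, Xbp1, Sec61b and Erp44), a share of 21.9% against 19.3% of all genes tested. Of the 10 tested genes of the PERK branch 5 were highest there (Atf4, Ddit3, Atf3, Ppp1r15a and Cebpb) and 5 were not (Asns, Sesn2, Nupr1, Ddit4 and Cebpg). Ddit3 and Atf4 are given in full below and were chosen after their values were seen. Xbp1 stood at 245 FPKM there, against 161 to 214 FPKM in the other 5 libraries. Ddit3, which encodes CHOP, was at 85.8, 38.2 and 20.9 FPKM at 37 degrees in the tumour region, the non-tumour region and normal diet livers, against 26.5, 26.1 and 21.6 FPKM at 6 degrees. Atf4, whose translation PERK raises, was at 172, 58.1 and 68.2 FPKM at 37 degrees, against 50.9, 46.6 and 43.8 FPKM at 6 degrees. Neither passed for temperature (limma's adjusted p = 0.281 and 0.154). Of the 10 genes of that branch, Cebpb rose with temperature and Nupr1 fell in high-fat livers. Macrophage genes summed to 851 FPKM in that library, against 38.6 and 49.3 FPKM in the non-tumour region and normal diet libraries of 37 degrees, and their part in these values was not tested.

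**Figure D4:**
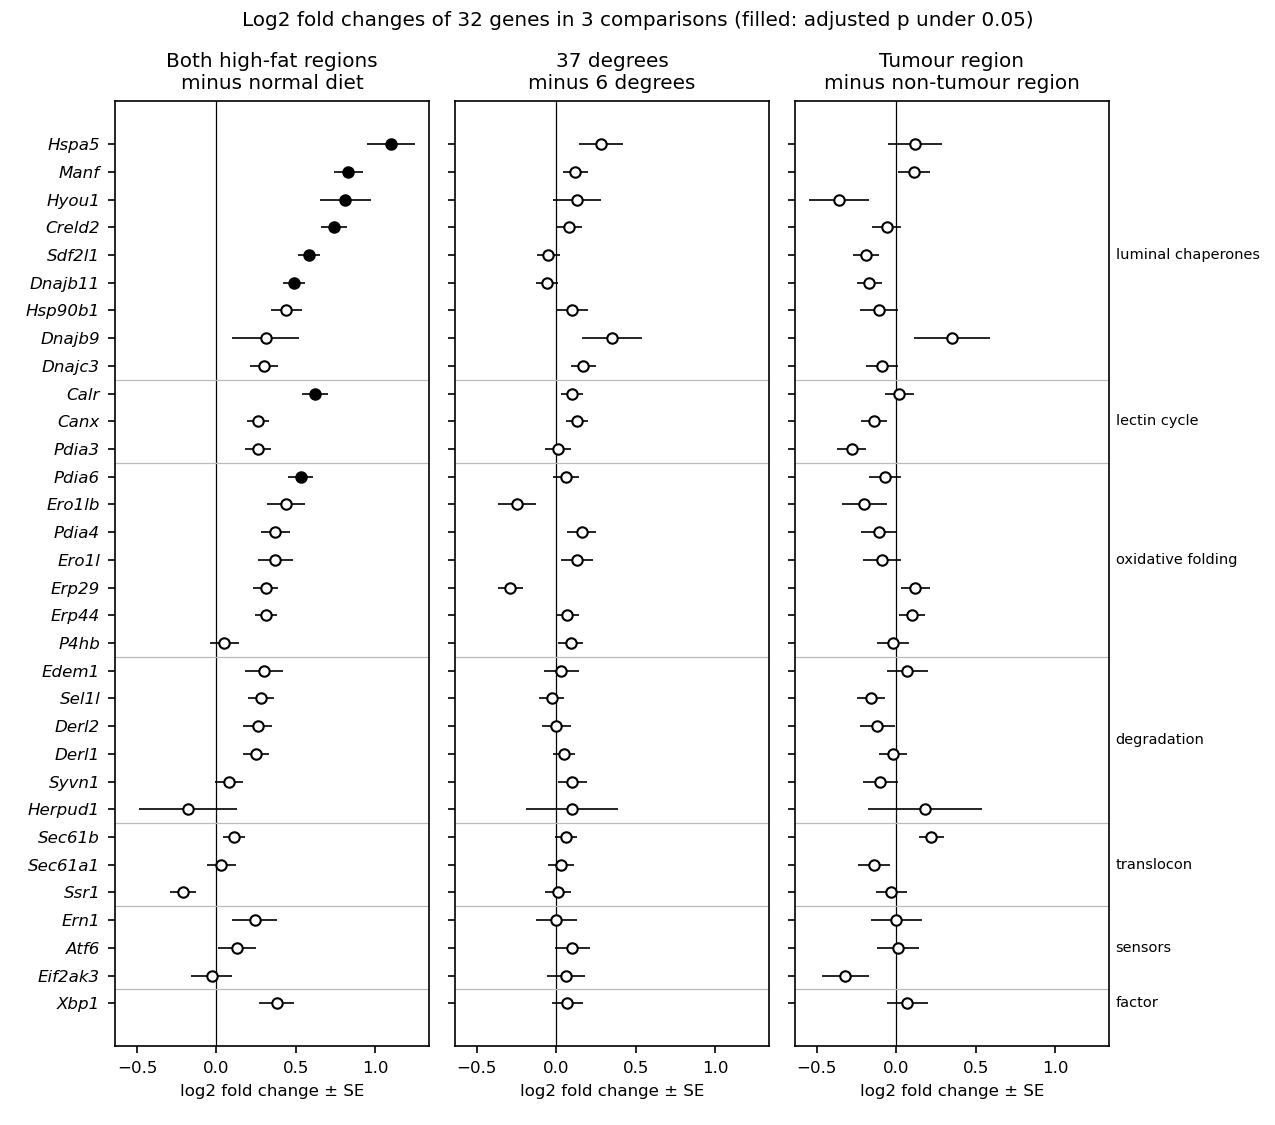
Log2 fold change with its SE for the 32 genes in the 3 comparisons (filled points have an adjusted p under 0.05 by limma over 11558 genes). The 8 filled points all lie in the high-fat comparison, at 0.49 to 1.10, and the points of the other comparisons lie between -0.36 and 0.35.

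The third comparison set the tumour region against the non-tumour region of high-fat livers. Here too 0 of 32 genes passed by limma. Of all genes 0.45% rose and 0% fell (unadjusted, 735 higher and 434 lower), so 0 of 32 is near the share of all genes. Before adjustment Sec61b (higher) and Pdia3 (lower) had p under 0.05. The median log2 fold change was -0.07 over the 32 genes and -0.02 over all genes. The tumour region lay below the non-tumour region at both temperatures for 16 of the 32 genes, against 32.5% of all genes, and above it for 4, against 26.6%.

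Hyou1 had the lowest value (-0.36 ± 0.19), with a limma adjusted p = 0.57, followed by Eif2ak3 (-0.32 ± 0.15, limma's adjusted p = 0.541). Pdia3 was at 495 and 535 FPKM in the tumour region, against 644 and 608 FPKM in the non-tumour region (-0.28 ± 0.09, limma's adjusted p = 0.423). Sec61b was at 232 and 226 FPKM in the tumour region, against 206 and 188 FPKM in the non-tumour region (0.22 ± 0.08, limma's adjusted p = 0.487). For the genes that rose in high-fat livers the 95% intervals of this difference were -0.31 to 0.55 for Hspa5, -0.15 to 0.37 for Manf and -0.20 to 0.25 for Calr. Macrophage genes were higher in the tumour region in the same comparison, with a list median of 2.51 on the log2 scale and 1 of 13 genes passing.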

How the data were processed

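RNA sequencing values of 6 libraries were used, 1 per group of liver source and perfusion temperature. The authors deposited FPKM per gene symbol; TopHat2 2.1.1, Bowtie2, Cuffdiff 2.2.1 and the build mm10 are named in the submitters' processing notes. Settings, annotation and use of strand are not given there, so overlapping genes on the other strand may add to a value. Depth was estimated from the spacing of low FPKM in genes with 1 annotated transcript of known length, taking FPKM as scaled by each library's own total.

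After 1313 small RNA symbols were left out, 11558 genes averaging 1 FPKM or more were tested on log2(FPKM + 1). The tool was limma 3.58.1, run in R 4.3.3. This scale makes the fold changes of low genes smaller than the ratio of their FPKM. Source and temperature were additive terms, leaving 2 degrees of freedom and 3.37 from the prior, with Benjamini-Hochberg adjustment. The high-fat contrast is the mean of both regions minus normal diet. It is orthogonal to the temperature and the tumour contrast. Members and lists were chosen with earlier results of these data known. All 33 members are named. Full values are given for those that passed, those with the largest changes and some that show how a role group behaved. Of the further ER genes, at most 6 that passed per contrast are named by rule. Promoter windows come from RefSeq (GRCm38.p6).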

Additional observations from a re-analysis of the deposited data

Results flagged for a closer look

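Herpud1, which encodes a membrane protein of ER-associated degradation, moved in opposite directions with temperature in different sources. The log2 difference between 37 and 6 degrees was 0.84 in the tumour region, 0.20 in the non-tumour region and -0.75 in normal diet livers, which rests on 1 library per value. In a fit chosen after seeing the data, with both high-fat regions as replicates and a diet by temperature term, the temperature effect was higher by 1.28 in high-fat than in normal diet livers (limma, unadjusted p = 0.0148, adjusted p = 1). By that fit 0 of 11558 genes passed (375 at an unadjusted p under 0.05).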

How the results depend on the processing

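Over 11 alternatives the 8 genes that rose in high-fat livers kept their direction, and each lost its call with no filter on low values (adjusted p 0.136 to 0.263). The 8 stayed 8 with a pseudocount of 0.1 FPKM, a mean of 5 FPKM or median-ratio rescaling. With single libraries left out, 1 to 9 of the genes rose, 275 to 1357 of all genes differed in the high-fat comparison (1241 with all libraries), 63 to 475 with temperature (593) and 0 to 165 between regions (52). The lowest temperature counts, 63 and 127, came without a non-tumour library. With temperature 330 genes differed at a mean of 5 FPKM, 0 with no filter (unadjusted, 1009 higher and 1677 lower) and 0 without the source term (424 higher and 814 lower). Between regions 0 differed at a pseudocount of 0.1 FPKM (722 and 417), at a mean of 5 FPKM (439 and 321) and with no filter (1121 and 703). In each alternative 0 of the ER genes passed for temperature (unadjusted, 0 to 4 higher and 0 to 2 lower) or region (0 to 2 and 0 to 4). For no called gene did the sign turn; 35, 12 and 25 values of genes not called did so for temperature, high-fat and tumour. The source term pairs the 37 and 6 degree libraries of each source (3 pairs); beyond it, the labels carry no replicate numbers to pair by. Each group holds 1 library, and the cause of these losses was not tested.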
